A study of Mus musculus with 8 samples.

Results

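The libraries described here are the 4 solvent controls of a study that gave ginseng berries concentrate or ginsenoside Re to C2C12 cells, an immortalised mouse myoblast line. They were chosen by their labels, with earlier results of these data known. Of these DMSO libraries, 3 are in the table with the Re samples (below, the myoblast-table controls). The other 1 is in the table with the berry concentrate (the berry-table control). Together they are 4 of the 8 libraries of the series, and no treated library was used. The labels give all 4 the same cell line, the genotype wild type, the cell type immortalized mouse myoblast and DMSO, the solvent, as treatment. Dose of solvent, time, passage, density and growth medium are not among the labels used here, and nothing says whether the 3 replicates came from separate cultures, so their spread may be technical.

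C2C12 cells descend from adult mouse muscle satellite cells, the stem cells that repair muscle fibres. Proliferating C2C12 myoblasts are known for Myod1 and Myf5, basic helix-loop-helix factors that commit a cell to skeletal muscle, and for desmin and M-cadherin. On serum withdrawal they switch on Myog, leave the cell cycle, fuse and build sarcomeres. Cultured mesenchymal cells also keep a record of where in the embryo they came from in their Hox genes, which are used in the order of their place in each cluster along the head-to-tail axis and along the limb.

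Values are TPM (transcripts per 1000000, a level that accounts for gene length) divided by a median-of-ratios factor per library and are called rescaled TPM. A difference is the mean of the 3 log2(rescaled TPM + 1) values of the myoblast-table controls minus that of the berry-table control, so a positive value is higher in the myoblast table. Genes at 10 or more rescaled TPM on one side were compared, 7175 of the 52139 genes listed in both tables, and a difference of 2 or more (4-fold on this scale) was counted. One side has 1 library and the tables were normalised separately, so no test was made and every comparison across tables is a description. The rescaling factors were 1.35, 1.19 and 1.29 for the myoblast-table controls and 0.507 for the berry-table control, whose listed TPM summed to 403442 against 642180 to 716589. Depth cannot be read from TPM. Small noncoding RNA genes held 34.3% of the listed TPM in the berry-table control and 19.5% to 21.6% in the others. This class includes the rRNA and tRNA genes of mitochondria. All mitochondrially encoded genes together held 16.8% in the berry-table control and 14.4% to 18.1% in the others.

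The berry-table control stood apart from the other 3. Of the 7175 genes, 386 (5.38%) were at least 4-fold higher in the myoblast-table controls and 305 (4.25%) were at least 4-fold higher in the berry-table control, 691 (9.63%) in all. For 680 (9.48%) the berry-table value also lay outside the range of the 3, and for 63 (0.878%) the 3 themselves spanned a difference of 2 or more. Any 2 of the myoblast-table controls differed that much at 0.502% to 0.641% of genes, while each of them differed from the berry-table control at 9.34% to 10.1%. The median absolute log2 difference was 0.116 to 0.157 within the myoblast table and 0.616 to 0.665 across the tables. For 6445 genes (89.8%) the berry-table value lay outside the range of the other 3, so a value outside that range is common and says little about any single gene. Among protein-coding genes the counts were 355 higher in the myoblast-table controls and 154 higher in the berry-table control. Of 106 small noncoding RNA genes, 80 were higher in the berry-table control.

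**Figure D1:**
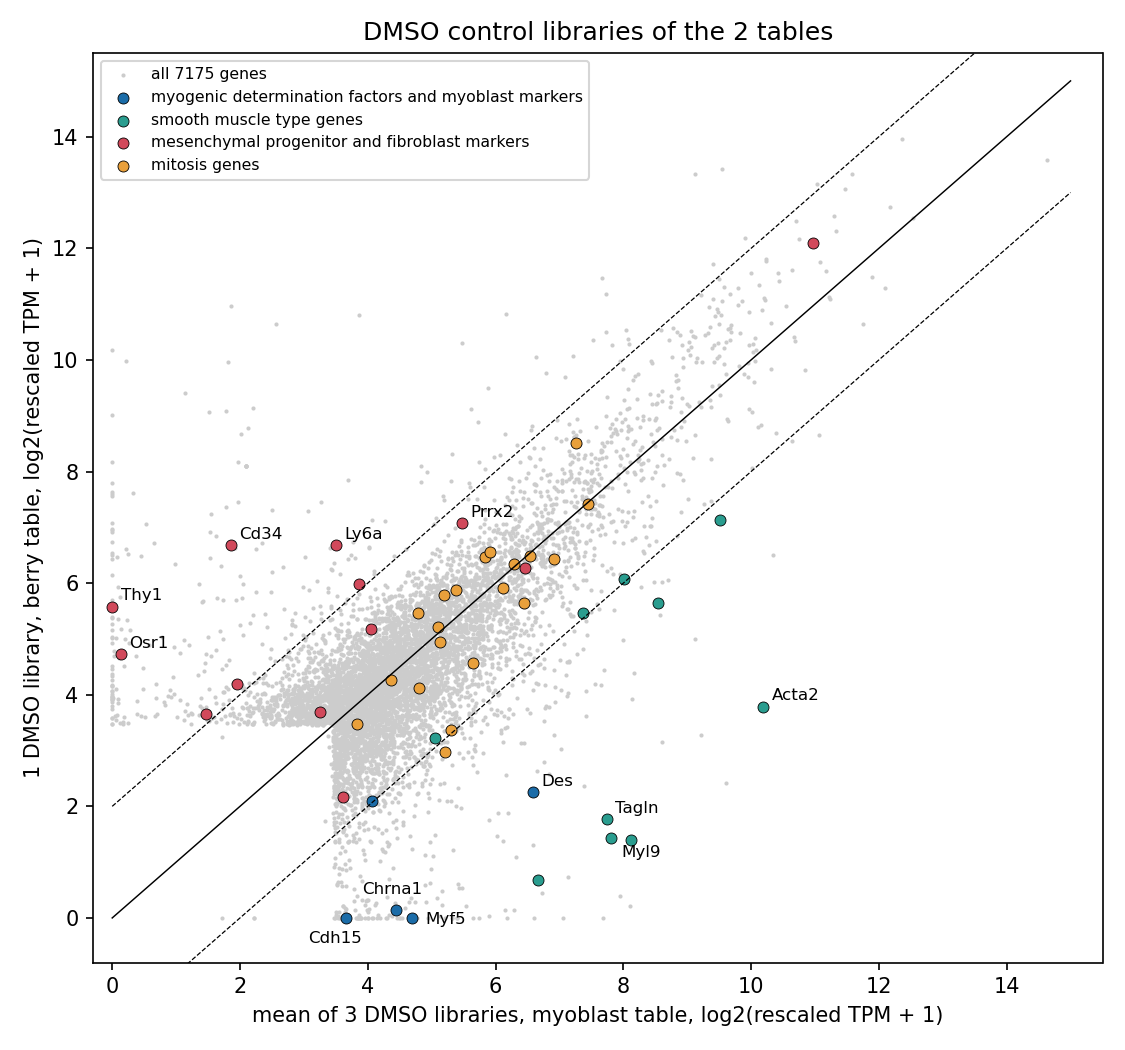
Level of each of 7175 genes in the DMSO controls, as the mean log2(rescaled TPM + 1) of the 3 myoblast-table libraries (x axis) and the value of the 1 berry-table library (y axis). The solid line marks equal levels and the dashed lines a difference of 2. Myf5, Cdh15 and Chrna1 sit at or near 0 on the y axis, Thy1 at 0 on the x axis, and 19 of the 20 mitosis genes lie between the dashed lines.

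Skeletal muscle commitment genes were read in the myoblast-table controls and were at or near 0 in the berry-table control, against its label. Myod1 (ENSMUSG00000009471) was at 8.83, 10.2 and 9.73 rescaled TPM in the myoblast-table controls and was listed at 0 in the berry-table control. Myf5, its close relative, was at 24.2, 25.5 and 25.2 and was listed at 0. Cdh15, the M-cadherin gene, was at 12.95, 11.4 and 10.7 and was listed at 0. Des, which encodes the muscle intermediate filament desmin, was at 94.3, 97.8 and 94.5 against 3.78, a difference of 4.33. The 3 values lay close together and far above the berry-table value for each of these genes. In these bulk libraries, fewer cells of a type and less RNA per cell cannot be told apart.

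Upstream regulators of the muscle programme differed unevenly. Eya4, a transcriptional coactivator, was at 8.39, 9.97 and 10.4 and was listed at 0 in the berry-table control. Six4 was at 7.06 to 7.10 against 8.24, and Eya1 at 5.29 to 5.84 against 3.57. Pax3, a paired-box factor of embryonic muscle progenitors, was at 1.19 to 1.31 and listed at 0 in the berry-table control. Pax7, the satellite cell factor, was at 0 to 0.11 in the 3 and listed at 0 in the other, so it was low on both sides. Of the 16 myoblast markers, 11 reached 1 rescaled TPM in at least 1 myoblast-table control and 4 did so in the berry-table control. The summed level of the 16 was 202 to 210 and 18.96. Of the 5 at 10 or more on one side, 4 were at least 4-fold higher in the myoblast-table controls and 0 in the other. The shares over all genes were 5.38% and 4.25%. These 5 reached 10 in the myoblast-table controls only, so their direction was fixed by the limit. Their median difference was 4.30, where the median over all genes was -0.00449.

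Genes of the neuromuscular junction and of muscle adhesion followed the same split in part. Chrna1, the alpha subunit of the muscle acetylcholine receptor, was at 20.3, 20.8 and 20.9 against 0.0985, a difference of 4.30. Rapsn, which anchors that receptor, was at 9.77, 10.3 and 9.56 and was listed at 0. Musk, the receptor kinase that clusters it, was at 3.63, 3.94 and 3.54 against 0.0197. Agrn, the ligand of that pathway and also made by many other cells, was at 6.64 to 6.80 against 7.21. Itga7, the laminin-binding integrin of muscle, was at 25.6, 23.7 and 24.9 against 0.276, and Jam2, an adhesion molecule of fusing myoblasts, at 32.5, 32.5 and 33.4 against 0.276. Myof, the membrane protein myoferlin, went the other way at 77.4, 81.0 and 78.7 against 127, a difference of -0.68. Of 6 fusion and membrane genes at 10 or more, 2 were at least 4-fold higher in the myoblast-table controls and 0 in the berry-table control. The shares over all genes were 5.38% and 4.25%. The 2, Itga7 and Jam2, reached 10 in the myoblast-table controls only.

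Markers of terminal differentiation were low on both sides. Myog was at 0, 0.253 and 0.101 in the myoblast-table controls and listed at 0 in the berry-table control, and Myf6 was under 0.25 in each library. Of 30 sarcomere genes, 2 were at 10 or more on one side. Acta1, skeletal alpha-actin, was at 25.6, 19.4 and 19.6 against 0.0985, a difference of 4.35. Tnnt2, a troponin T gene of heart and immature skeletal muscle, was at 33.1, 30.2 and 33.2 against 22.7, a difference of 0.48. Of the Mef2 factors, which act with the Myod1 family, Mef2a was at 15.8, 18.0 and 18.3 against 2.78, Mef2d at 12.96, 14.6 and 14.6 against 5.20, and Mef2c at 0.770, 0.152 and 0.0232 against 6.09. Mef2c thus had the opposite order to Mef2a and Mef2d.

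**Figure D2:**
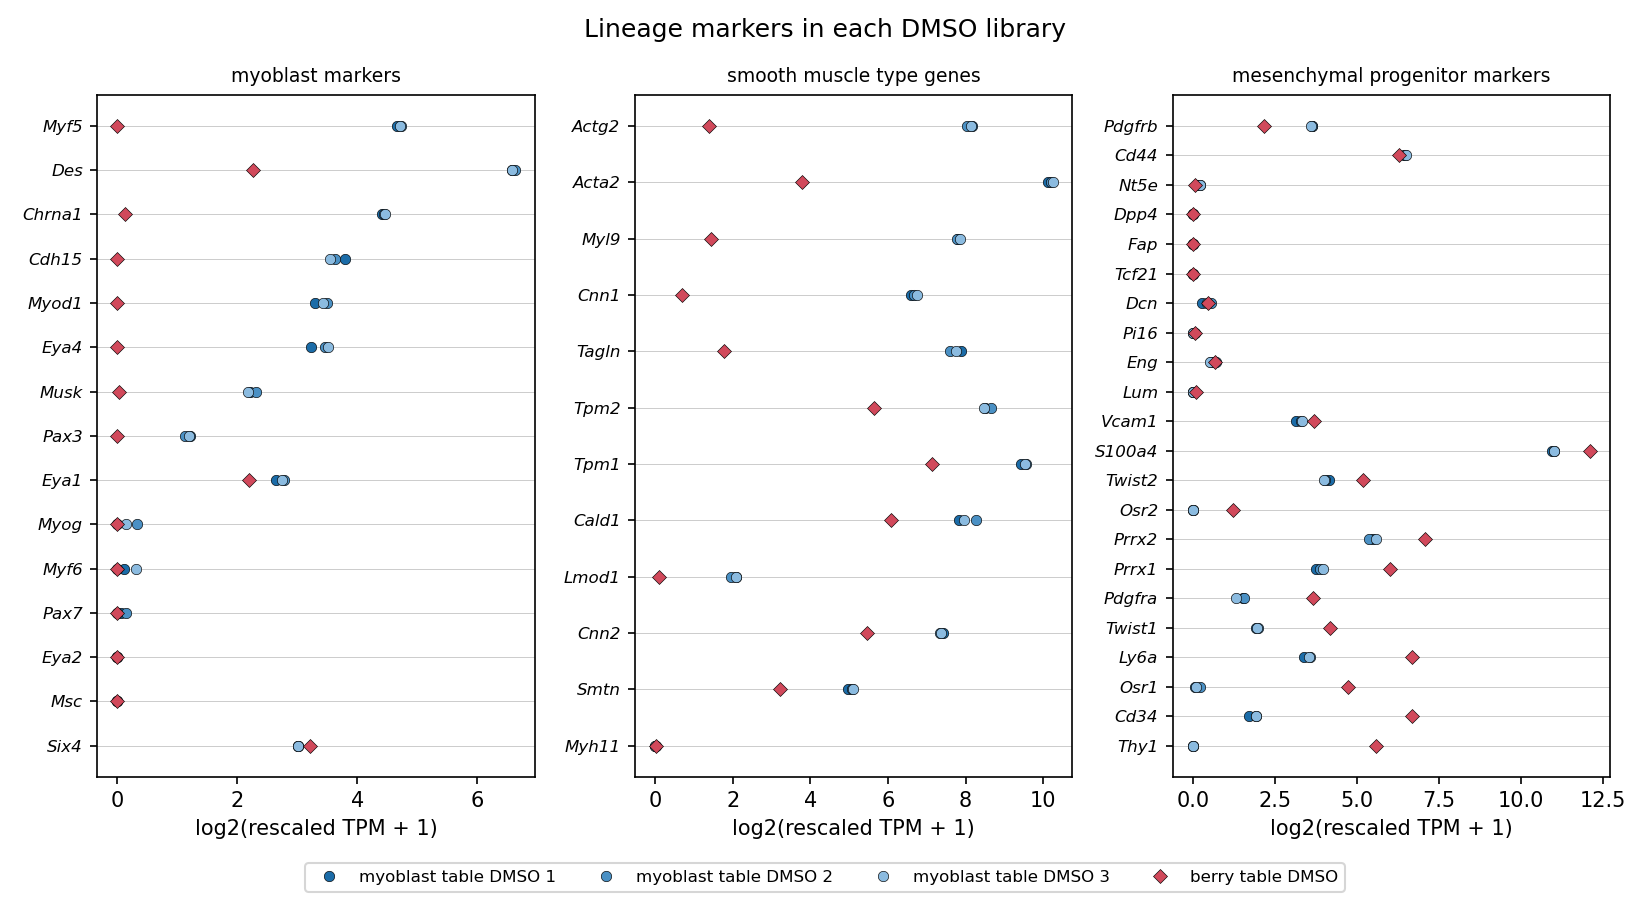
Level of the myoblast markers reported here and of each smooth muscle type gene and mesenchymal progenitor marker, as log2(rescaled TPM + 1), with circles for the 3 myoblast-table DMSO libraries and a diamond for the berry-table DMSO library. Myf5 and Acta2 lie far to the right in the circles, while Thy1, Cd34 and Osr1 lie far to the right in the diamond.

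The sequences just upstream of 4 of these contractile and junction genes are shown because their levels differed together and because muscle regulatory letters are found in them. The letters CAGCTG, an E-box that the Myod1 family prefers and that reads the same on both strands, and the CArG box, the element of serum response factor, were searched in the 250 bases before each gene start in RefSeq promoter windows (GRCm38.p6). Capitals mark the matches, and each line runs 5′ to 3′ on the gene's strand. Chrna1 is at chr2:73580339-73580588 on the minus strand, Des at chr1:75360042-75360291 on the plus strand, Acta1 at chr8:123894776-123895025 on the minus strand and Myl9, a smooth muscle myosin light chain gene, at chr2:156775214-156775419 on the plus strand.
Chrna1: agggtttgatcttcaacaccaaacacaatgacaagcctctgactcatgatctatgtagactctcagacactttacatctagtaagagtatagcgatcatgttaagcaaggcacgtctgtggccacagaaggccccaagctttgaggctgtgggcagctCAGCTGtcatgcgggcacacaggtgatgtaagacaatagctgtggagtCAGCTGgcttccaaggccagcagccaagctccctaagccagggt
Des: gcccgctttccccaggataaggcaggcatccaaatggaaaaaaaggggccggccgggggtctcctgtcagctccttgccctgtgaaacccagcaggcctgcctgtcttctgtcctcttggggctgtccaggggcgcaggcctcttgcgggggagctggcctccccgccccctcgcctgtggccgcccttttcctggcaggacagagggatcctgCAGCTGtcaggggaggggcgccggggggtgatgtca
Acta1: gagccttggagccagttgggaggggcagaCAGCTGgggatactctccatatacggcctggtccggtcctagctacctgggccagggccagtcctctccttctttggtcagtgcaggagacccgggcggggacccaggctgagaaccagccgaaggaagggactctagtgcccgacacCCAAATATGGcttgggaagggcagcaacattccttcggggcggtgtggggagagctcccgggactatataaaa
Myl9: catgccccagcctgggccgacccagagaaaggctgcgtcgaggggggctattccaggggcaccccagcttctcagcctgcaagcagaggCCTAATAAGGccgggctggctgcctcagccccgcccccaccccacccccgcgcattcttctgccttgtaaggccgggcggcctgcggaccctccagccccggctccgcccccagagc
In Chrna1 CAGCTG begins 92 and 44 bases before the gene start, in Des 36 and in Acta1 221. The CArG box begins 73 bases before the start in Acta1 and 161 in Myl9. These distances are from the RefSeq start. The outermost nearby GENCODE M21 start is the same base in Chrna1, lies 37 bases downstream in Des and 24 downstream in Acta1, and lies 44 upstream in Myl9, whose last 44 searched bases are not printed. Windows were found for 6 of the 8 muscle-list genes counted as higher in the myoblast-table controls, and CAGCTG was in 3 of them. Over the 27025 genes with a window, 14.7% held CAGCTG and 1.62% the CArG box, and over the 5482 with a window among those at 10 or more rescaled TPM on one side, 12.6% and 1.61% did. CAGCTG was in 16.3% of 257 genes higher in the myoblast-table controls and in 13.4% of 134 genes higher in the berry-table control, and the CArG box was in 5.45% and 2.24%. A match describes letters only and shows no binding.

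Smooth muscle type actins and their partners were among the largest differences. These proteins are ones that proliferating myoblasts and myofibroblasts also use. Acta2, smooth muscle alpha-actin, was at 1121, 1183 and 1208 in the myoblast-table controls and 12.8 in the berry-table control, a difference of 6.41. Actg2, the enteric gamma-actin, was at 288, 260 and 280 against 1.64 (6.71), and Tagln, the actin-binding protein transgelin, at 234, 192 and 215 against 2.40 (5.97). Cnn1, calponin 1, was at 95.04, 100.4 and 106.6 against 0.611, and Myl9 at 224, 218 and 229 against 1.69. The tropomyosin genes Tpm1 and Tpm2 differed by 2.37 and 2.90. Myh11, the myosin heavy chain that defines mature smooth muscle, was at or under 0.0197 in every library. Of 10 list members at 10 or more, 7 (70%) were at least 4-fold higher in the myoblast-table controls and 0 in the other. The shares over all genes were 5.38% and 4.25%. Actg2, Tagln, Cnn1 and Myl9 reached 10 in the myoblast-table controls only. The median difference of these 10 list members was 4.44 and was positive under each of the 4 other scalings tried. All of those but quantile normalization moved the median over all genes up, to 0.62 to 1.37. A positive sign there says little. Under quantile normalization the list median was 4.48. The summed level of the 12 genes was 3444 to 3608 and 325.

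Of 10 Mef2, Tead and YAP/TAZ genes at 10 or more, 2 (20%) were at least 4-fold higher in the myoblast-table controls and 0 in the berry-table control. The shares over all genes were 5.38% and 4.25%. The 2 were Mef2a and Ankrd1. Ankrd1, a target of the mechanosensitive coactivators YAP and TAZ, was at 288, 265 and 291 against 14.2, a difference of 4.22. The targets Ccn1, Ccn2 and Amotl2 differed by 1.72, 1.45 and -0.12. The coactivator genes themselves went opposite ways, with Yap1 differing by 1.95 and Wwtr1, which encodes TAZ, by -0.63. Among the 14 largest differences were a pair of genes for small LIM-domain proteins. Crip1 was at 315, 234 and 283 against 0.158, and Crip2 at 147, 134 and 140 against 0.670. Hspb1, a small heat shock protein that binds actin, was at 217, 190 and 207 and was listed at 0 in the berry-table control. Asb5, a subunit of a muscle ubiquitin ligase family, was at 112, 88.6 and 115 against 0.355, and Dynap at 69.6, 70.2 and 75.6 and listed at 0.

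Among the neuronal and glial markers, 3 of the 4 members at 10 or more were at least 4-fold higher in the myoblast-table controls. The share over all genes was 5.38%, and these 3 reached 10 in the myoblast-table controls only. Nes, nestin, an intermediate filament of neural and also muscle progenitors, was at 134, 132 and 131 and was listed at 0 in the berry-table control. Tubb3, a beta-tubulin best known from neurons, was at 106, 86.3 and 98.5 and was listed at 0. Stmn2, a tubulin-binding stathmin, was at 72.4, 80.0 and 79.9 against 0.0985, and Tubb2b, outside the list, at 68.01, 68.5 and 74.003 against 0.0985. The defining glial and neuronal genes Sox10, Gfap and Rbfox3 were under 1 in all 4 libraries.

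Mesenchymal progenitor and fibroblast markers ran the other way. Thy1, the surface glycoprotein CD90, was listed at 0 in all 3 myoblast-table controls and was at 46.8 in the berry-table control. Cd34, a surface sialomucin of progenitors, was at 2.30, 2.82 and 2.79 against 102, a difference of -4.82. Ly6a, the Sca-1 gene, was at 9.49, 10.9 and 10.7 against 102 (-3.18). Osr1, a transcription factor of connective tissue progenitors in the limb, was at 0.0444, 0.177 and 0.0774 against 25.5 (-4.59). Pdgfra, the receptor that marks fibro-adipogenic progenitors, was at 1.87, 1.95 and 1.51 against 11.5 (-2.18).

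The mesenchymal transcription factors were present on both sides and higher in the berry-table control. Prrx1 was at 12.5, 13.7 and 14.6 against 62.6, and Prrx2 at 43.9, 40.5 and 46.9 against 134. Twist1 was at 2.77, 2.94 and 2.92 against 17.2, a difference of -2.23, or -1.74 with the listed TPM set to equal sums. Pdgfrb was lower in the berry-table control, at 11.5, 11.3 and 11.1 against 3.51. Of 13 members at 10 or more, 7 (53.8%) were at least 4-fold higher in the berry-table control and 0 in the others. The shares over all genes were 4.25% and 5.38%. Thy1, Cd34, Osr1, Pdgfra and Twist1 reached 10 in the berry-table control only, so their direction was fixed by the limit. The median over the 13 was -2.12 and kept its sign under each of the 4 other scalings. It was only -0.28 in the TPM as deposited, where the median over all genes was 1.37. The summed level of the 22 genes was 2161 to 2240 and 5024, of which S100a4 alone was 1963 to 2038 and 4394. The matrix proteoglycan genes Dcn and Lum, abundant in tissue fibroblasts, were under 0.5 in all 4 libraries, as were Dpp4, Fap, Pi16 and Tcf21. These lists do not give the berry-table control a cell type name.

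Of the lists for other cell types, 4 had no member at 10 or more. None of 8 endothelial, 11 adipogenic, 9 macrophage and blood cell or 5 pluripotent cell markers reached that level on either side. The endothelial list summed to 0.185 to 0.295 in the myoblast-table controls and 0.434 in the berry-table control, and the macrophage list to 1.67 to 2.58 and 3.71. Pparg, the adipogenic nuclear receptor, was at 8.19, 9.62 and 7.89 against 0.0985, with Adipoq, Plin1 and Fabp4 under 1 throughout. Of the skeletogenic genes, Runx2 was at 11.5, 8.69 and 8.01 against 6.48, Spp1 at 491, 472 and 470 against 535, and Sox9 at 3.68, 5.68 and 4.80 against 10.3. Krt14, a keratin of basal epithelia, was at 20.2, 18.3 and 16.3 against 3.15, while the epithelial genes Epcam, Cdh1 and Krt5 were under 1. Serpina1a, a liver antiprotease gene with near-identical copies, was listed at 0 in the 3 and was at 10.98 in the berry-table control.

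The controls read different Hox genes. In the myoblast-table controls the level lay in paralogues 9 to 13 of the Hoxa and Hoxc clusters, the set used in posterior trunk and limb. Hoxc10 was at 18.6, 22.4 and 21.8 and was listed at 0 in the berry-table control. Hoxc11 was at 10.2, 8.90 and 9.84, Hoxc13 at 5.24, 6.54 and 5.92 and Hoxa11 at 5.26, 6.43 and 4.90, and each was listed at 0 in the berry-table control. Hoxa9 was at 9.35, 12.3 and 9.59 against 0.0788, and Hoxa10 at 13.04, 12.6 and 13.7 against 1.56.

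In the berry-table control most of the summed level lay in paralogues 1 to 8, of the Hoxa cluster (27.7), the Hoxd cluster (13.4) and, less, the Hoxb cluster (5.44). The Hoxc genes of these paralogues ran the other way, with sums of 8.52, 10.6 and 11.1 against 2.42. Among them, Hoxc6 was at 5.12, 8.08 and 5.25 against 1.16 and Hoxc4 at 2.10, 1.95 and 2.67 against 0.197. Hoxd8 was listed at 0 in the 3 myoblast-table controls and was at 9.56, and Hoxd4 and Hoxd9 were listed at 0 in the 3 and were at 3.53 and 3.37. Hoxa2 was at 0.126, 0.202 and 0.0851 against 6.60, and Hoxa3 at 0.385, 0.101 and 0.712 against 4.49. Hoxb6 was at 0, 0 and 0.116 against 3.15, and Hoxa7 at 4.47, 4.52 and 4.10 against 8.12. Over the 16 genes of paralogues 9 to 13 the sums were 66.1, 73.9 and 71.0 against 5.03. Over the 23 genes of paralogues 1 to 8 they were 16.7, 18.9 and 18.6 against 49.0. All 5 Hoxc genes of paralogues 9 to 13 were listed at 0 in the berry-table control, and all 9 Hoxd genes were listed at 0 in the myoblast-table controls. Most Hox genes were under 10, and 3 of the 39, Hoxa9, Hoxa10 and Hoxc10, entered the count, each higher in the myoblast-table controls. These 3 reached 10 only as the mean of the myoblast-table controls, so their direction was fixed by the limit. Hoxd8 and Hoxa7, at 9.56 and 8.12 in the berry-table control, fell under it.

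**Figure D3:**
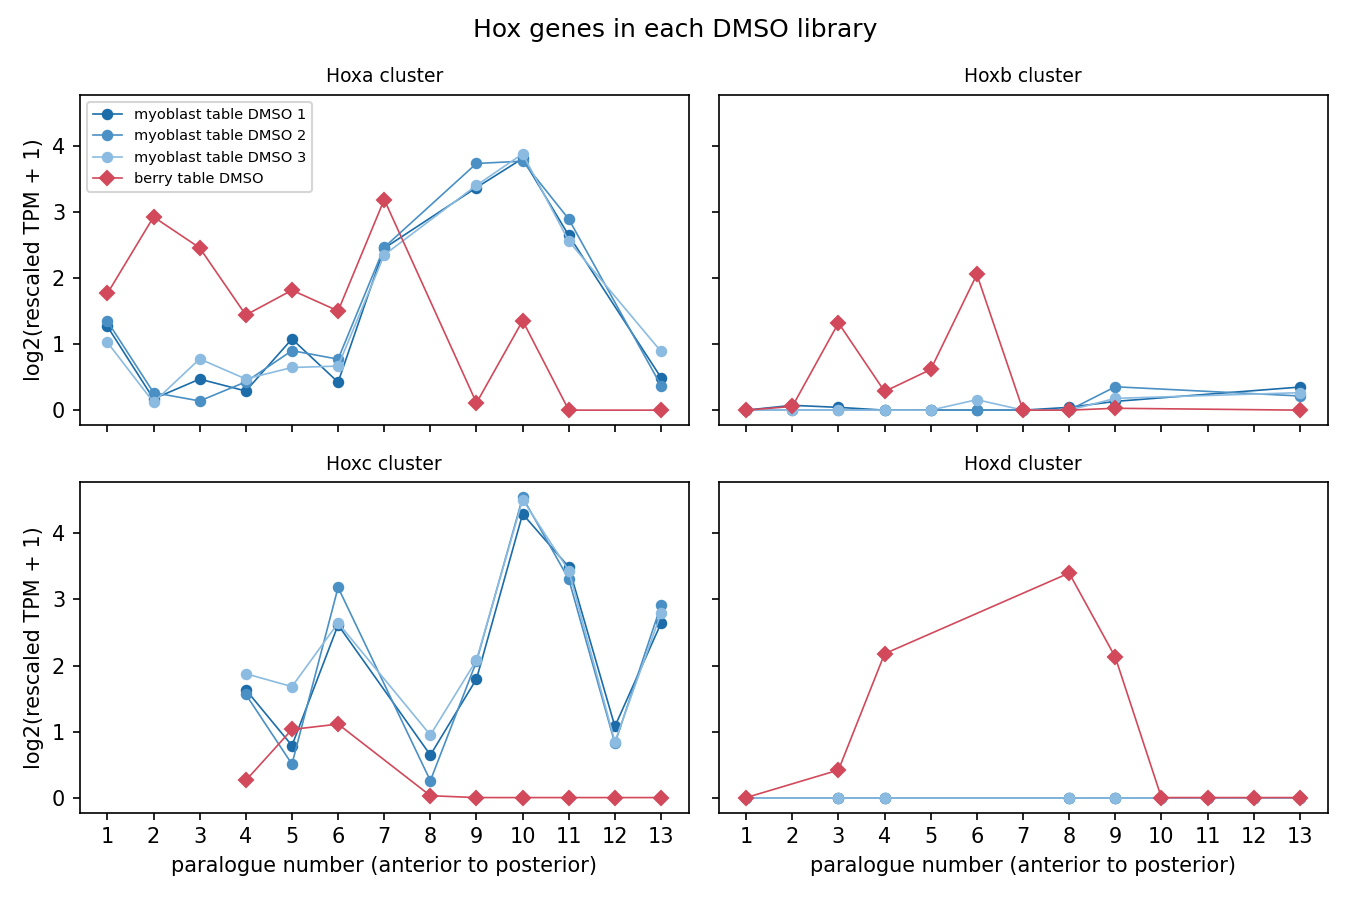
Level of each Hox gene, as log2(rescaled TPM + 1), by cluster and by paralogue number, with circles for the 3 myoblast-table DMSO libraries and diamonds for the berry-table DMSO library. The circles peak at paralogue 10 in the Hoxa and Hoxc clusters, and the diamonds peak at paralogue 8 in the Hoxd cluster.

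Other positional factors differed in fewer cases. Among them 4 were at 10 or more on one side, with 2 differences above 0 and 2 below. Of these 4, 1 was at least 4-fold higher in the myoblast-table controls and 0 in the berry-table control. The shares over all genes were 5.38% and 4.25%. The 2 below 0 come first here. Tbx15, a factor of limb and trunk mesenchyme, was at 4.67, 5.004 and 4.999 against 13.7, and Foxf2, a mesenchymal forkhead factor, at 5.36, 4.80 and 5.87 against 17.1. En1 was at 5.31, 4.42 and 6.25 against 5.95, inside the range of the 3. Tbx5 and Pitx1, markers of forelimb and hindlimb, were listed at 0 in all 4, and Tbx4, of the hindlimb, was at 0.0464 to 0.118 against 1.36. The median over the 4 members at 10 or more was -0.07 and was 0.69 to 2.05 under the 4 other scalings, so this list has no set direction.

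Imprinted genes, which are read from one parental copy and many of which control fetal growth, split by locus. Dlk1, a membrane inhibitor of differentiation, was listed at 0 in the 3 myoblast-table controls and was at 124 in the berry-table control. Other genes of its locus were low there: Rian was at 3.29, Mirg at 1.85 and Meg3 at 0.828, with 0 to 0.0929 in the myoblast-table controls. Grb10, an adaptor that restrains insulin receptor signalling, was at 0.459, 0 and 0.0696 against 96.5, and Slc38a4, an amino acid transporter, at 0.104, 0.0843 and 0 against 60.4. H19, a noncoding RNA, was at 8.63, 13.3 and 13.9, Peg10 at 14.7, 16.4 and 14.2 and its neighbour Sgce at 11.8, 11.5 and 9.87, and each of these was listed at 0 in the berry-table control. Peg3, a zinc finger factor, was at 13.1, 15.2 and 14.6 against 1.32. Of 9 members at 10 or more, 4 (44.4%) were at least 4-fold higher on each side. The shares over all genes were 5.38% toward the myoblast-table controls and 4.25% toward the berry-table control. All but Gnas reached 10 on their high side only, so the count says little about the list as a whole.

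As checks of the line itself, Xist and the 4 Y-linked genes were at or under 0.0222 in all 4 libraries, so these genes do not separate the controls. Cdkn2a and Cdkn2b, neighbouring cell cycle inhibitor genes lost in many immortal lines, were listed at 0 in all 4.

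Of 9 insulin-like growth factor list genes at 10 or more, 7 were at least 4-fold higher in the berry-table control and 2 in the others. Over all genes these shares were 4.25% and 5.38%. All but Igfbp6 and Igfbp7 reached 10 on their high side only, and members under 10 on both sides, such as Igf1r, Insr and Irs1, were not compared. The count thus says little about the list as a whole. The RNA-binding proteins that bind Igf2 mRNA were higher in the berry-table control: Igf2bp3 was at 0.178, 0.0758 and 0.139 against 10.4, Igf2bp1 at 0.585, 1.32 and 2.24 against 11.4, and Igf2bp2 at 8.55, 8.33 and 9.01 against 40.05. Of the binding proteins that hold IGFs outside the cell, Igfbp4 was at 5.40, 5.78 and 7.85 against 43.1 and Igfbp6 at 68.1, 63.8 and 65.6 against 313, a difference of -2.23 that was -0.91 in the TPM as deposited. Igfbp2 was at 15.1, 13.4 and 12.3 and listed at 0 in the berry-table control, and Igfbp7 was at 135, 131 and 147 against 23.0. The receptor gene Igf1r was at 4.36 to 5.08 against 5.74. The receptor Igf2r, which clears IGF2, was at 3.95, 3.43 and 3.67 against 20.004.

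The matrix differed by molecule rather than in one direction. The collagen list had 13 genes at 10 or more. Of these, 5 (38.5%) were at least 4-fold higher in the myoblast-table controls, where 5.38% of all genes were. In the berry-table control 2 (15.4%) were, where 4.25% of all genes were. Of the basement membrane chains, Col4a2 was higher in the myoblast-table controls at 85.4, 76.9 and 77.3 against 14.4, as was Col18a1 at 66.6, 65.2 and 62.9 against 2.70. Col4a6, another collagen IV chain but outside the list and its counts, was higher in the berry-table control, at 0.0296, 0.0590 and 0.0232 against 31.5. The laminin chain gene Lama4 was listed at 0 in the 3 and was at 4.12, while Lama5 was at 11.4, 12.4 and 8.05 against 0.532. The collagen VI chains differed among themselves, with Col6a1 at 4.21, 4.56 and 4.98 against 56.3 and Col6a2 at 0.874, 1.09 and 0.828 against 18.98, both higher in the berry-table control, and Col6a3 at 61.6, 43.7 and 54.02 against 51.4, inside the range of the 3. The type I collagen chains were closer, at 14.04, 11.8 and 12.7 against 21.6 for Col1a1 and 185, 161 and 167 against 221 for Col1a2. Tnc, the matricellular tenascin C, was at 66.4, 49.7 and 61.2 against 2.38, and Thbs1, thrombospondin 1, at 218, 178 and 209 against 17.2. Fbln1 was at 19.2, 17.7 and 18.7 and listed at 0 in the berry-table control, while its relative Fbln5, of elastic fibres, was at 2.04, 1.57 and 1.47 against 50.4.

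Secreted factors and surface proteins gave the remaining large differences. Il1rl1, the receptor of IL-33, had the largest difference toward the berry-table control once unnamed models, pseudogenes, ribosomal protein and small noncoding genes were left out, at 0.318, 0.295 and 0.139 against 196. The chemokine gene Cxcl5 was at 0.955, 1.52 and 1.11 against 30.4, while Ccl2 was at 167, 157 and 183 against 11.3 and Ccl7 at 77.2, 73.2 and 67.5 against 2.70. Grem1, a BMP antagonist, was at 43.0, 39.3 and 41.7 and listed at 0 in the berry-table control. Inhba, which encodes activin A, was at 24.7, 31.6 and 30.4 against 1.18. The tetraspanins Cd9 and Cd82 were at 102, 97.5 and 98.9 against 5.18 and at 16.4, 18.0 and 15.9 against a listed 0. Sdc3, a syndecan of muscle progenitors, was at 33.7, 44.5 and 47.1 and listed at 0, while Sdc1, Sdc2 and Sdc4 differed by -0.48, 0.36 and 0.03. Further genes at 30 or more in the berry-table control and under 1 in the others were Efemp1, a fibulin, at 91.4, Ramp3, a receptor-modifying protein, at 53.02, Cyp2c55 at 39.8 and Pnma5 at 39.3, together with the noncoding RNA genes Wincr1 at 133 and Snhg9 at 46.8. The longest transcripts of Wincr1 and Snhg9 are short, at 618 and 183 bases.

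Genes of cell division were read on both sides at similar levels. All 20 mitosis genes and all 20 DNA replication genes were at 10 or more on one side, with median differences of 0.08 and -0.27. The second was 0.26 to 0.98 under 3 of the 4 other scalings, but stayed 0.28 to 0.39 below the median of all genes in each. Mki67, the proliferation antigen, was at 33.8, 34.4 and 34.1 against 29.8, and Pcna, the polymerase clamp, at 124, 133 and 134 against 200. In each list 1 gene (5%) was at least 4-fold higher in the myoblast-table controls, near the 5.38% of all genes: Plk1, a mitotic kinase, at 35.6, 37.1 and 35.5 against 6.90, and Rrm2, a ribonucleotide reductase subunit, at 129, 165 and 130 against 23.5. The D-type cyclins differed in kind. Ccnd1 was at 104, 97.1 and 107 against 90.1, while Ccnd2 was at 0.0222, 0.0843 and 0.0232 against 16.3. The inhibitor Cdkn2c was at 10.3, 8.79 and 10.2 against 47.1, and Gdf15, a stress and p53 target, at 22.1, 15.3 and 19.2 against 0.296.

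Of the genes that every cell uses, all 29 were at 10 or more, and none was listed at 0. Their median difference was 0.22. Actb was at 4355, 4386 and 4399 against 2501 and Gapdh at 1727, 1876 and 1891 against 899. At least 4-fold higher in the myoblast-table controls were 3 of them (10.3%), where 5.38% of all genes were. These were Snrpd3, of the spliceosome, at 61.5, 108 and 85.9 against 7.78, Actg1 at 2248, 1982 and 2163 against 402, and Hsp90ab1 at 1542, 1651 and 1606 against 374. A few ribosomal protein genes differed far more, such as Rps16 at 787, 792 and 766 against 4.38 and Rps3a3 at 240, 237 and 259 against 0.315, while Rpl39l was listed at 0 in the 3 and was at 220. Such genes have near-identical copies, and how reads were split among them is not given in the sources used here. Mt-Co2, a mitochondrial gene that every respiring cell needs, was listed at 0 in all 3 myoblast-table controls and was at 85.7 in the berry-table control, so a listed 0 can also be a failed estimate.

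Small nucleolar RNA, histone and ribosomal protein genes and Malat1 differed between the tables as well. The part of library make-up in this was not tested. Of 32 small nucleolar RNA genes at 10 or more, 25 were at least 4-fold higher in the berry-table control and 1 in the others. The shares over all genes were 4.25% and 5.38%. The median over the 32 was -3.14. Replication-dependent histone genes, whose mRNA lacks a poly(A) tail, had a median of -0.97 over 58 genes, which was 0.38 in the TPM as deposited but below the median of all genes under each of the 4 other scalings. Malat1, a nuclear noncoding RNA, was at 518, 538 and 484 against 1157. Cytosolic ribosomal protein genes had a median of -0.90, which was 0.42 as deposited. Among the 718 genes with the shortest transcripts, up to 1001 bases, the median difference was -0.79 and 21.6% were at least 4-fold higher in the berry-table control, where the other 9 length groups of like size had 1.54% to 3.35%. The part of length and library make-up in the differences of short genes was not tested. With genes under 1000 bases left out, 348 genes were higher in the myoblast-table controls and 150 in the berry-table control.

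**Figure D4:**
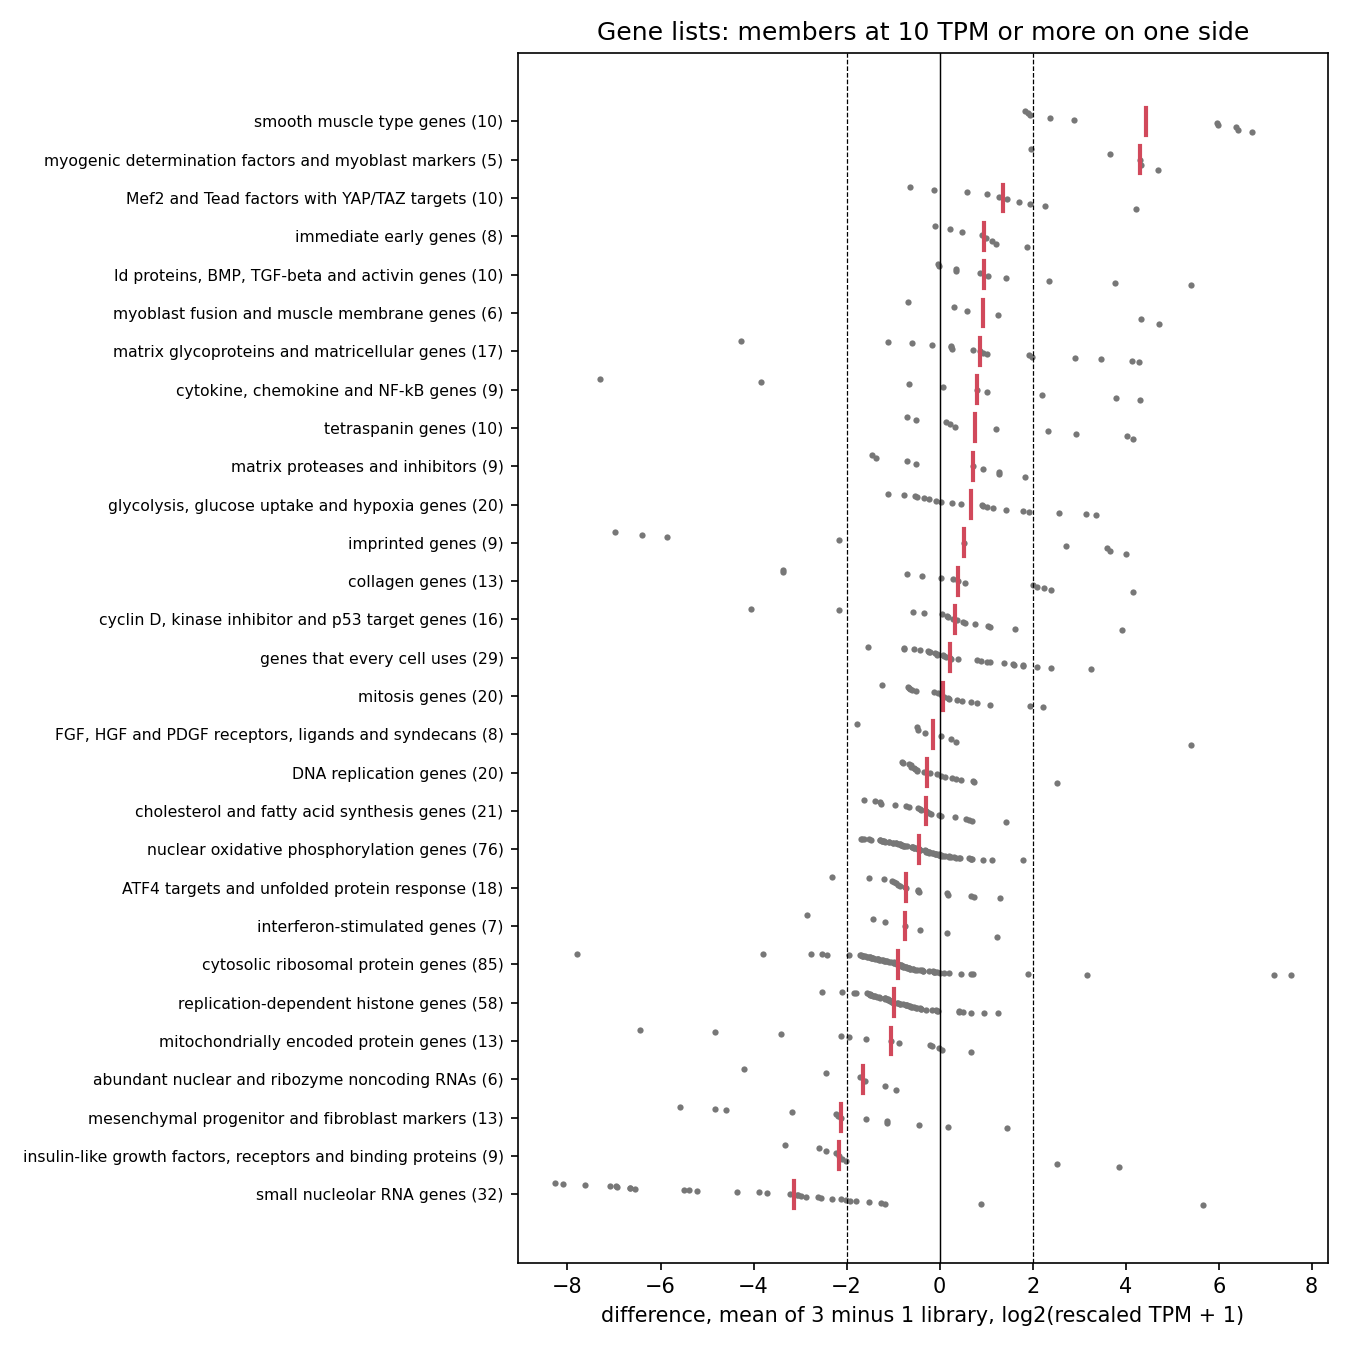
Difference of each list member at 10 or more rescaled TPM on one side (grey points) and the median of the list (red bars), on the log2(rescaled TPM + 1) scale, with the number of members in brackets. Positive values are higher in the 3 myoblast-table DMSO libraries. Smooth muscle type genes have a median of 4.44 and small nucleolar RNA genes -3.14.

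The counts depended on the scaling. The median over all 7175 genes was -0.00449 after rescaling, and it was 1.37 in the TPM as deposited and 0.63 with equal listed sums. As deposited, 93.6% of the counted genes were higher in the myoblast-table controls, and with equal sums 78.5%, where 55.9% were after rescaling. Just inside the limit of 2 were Ttll1 at 2.00109, Emd at 2.01 and Col4a1 at 2.01, and Mvk, Cdc42ep2 and Irs2 at -2.0009, -2.00361 and -2.01. Just outside were R3hcc1, Zmiz2 and Nid1 at 1.99934, 1.99 and 1.99, and Zfp36l1, Tmem106c and Rassf8 at -1.99684, -1.99622 and -1.99507. Of the counted genes, 39 were at 10 or more in all 3 myoblast-table controls and listed at 0 in the berry-table control. Another 50 were listed at 0 in all 3 and at 10 or more in the berry-table control. Without unnamed models, pseudogenes, ribosomal protein genes and small noncoding RNA genes, 34 and 14 remained. No length limit was set, and the 14 include Snhg9 and mt-Co2, with longest transcripts of 183 and 684 bases.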

How the data were processed

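The deposited values are log2(TPM + 1) per Ensembl gene, in 1 table with the berry concentrate and 1 with Re, as the authors' file names say. Per the submitters' processing notes, STAR and RSEM were among the tools, and both GRCh38 and GRCm39 among the builds. Their versions, settings and roles were not recorded there. TPM keeps no depth, so no counting interval can be given. The tables list 52139 and 52338 genes and were joined on the Ensembl ID; symbols, which differ for 1872 genes, are those of the berry concentrate table.

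The values were turned back to TPM and divided by median-of-ratios factors over the 13730 genes above 0 in all 4 libraries. Differences use a pseudocount of 1 TPM. No test was made. The steps were tested on simulated data. Transcript length (the longest) and gene class come from GENCODE M21 for 51884 of the joined genes, and 7172 of the 7175 compared have a length. Python 3.11.15, numpy 2.4.6, pandas 2.3.3 and matplotlib 3.10.9 were used.

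The libraries, the 43 gene lists and the rules were chosen with earlier results of these data known. Named genes are the 14 largest differences each way, leaving out unnamed models, pseudogenes, ribosomal protein genes and small noncoding RNA genes, up to 6 members of each list with the largest difference, every myoblast, Hox, positional, Xist or Y-linked gene at 1 TPM or more, 10 genes fixed by name, and those next to the limit. Other genes are named for context, after their values were seen. Alternatives were other scalings, pseudocounts, limits on low values and gene classes, and leaving out each replicate. A few genes that the rule would name are not reported here.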

Additional observations from a re-analysis of the deposited data

How the results depend on the processing

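Of 691 genes counted, 386 were higher in the 3 myoblast-table controls and 305 in the berry-table control. The first count was 1783 in the TPM as deposited, 724 with equal listed sums, 722 with mitochondrially encoded genes left out and equal sums, 601 with no limit on low values and 248 with a limit of 20 TPM. The second was 121 as deposited, 198 with equal sums, 195 without mitochondrially encoded genes, 479 with no limit, 158 with nameable genes only and, in alternatives chosen after seeing the data, 150 without genes under 1000 bases and 154 for protein-coding genes only. Undoing the rescaling raises the myoblast-table values and lowers the berry-table values. All 386 genes of the first count were therefore bound to stay counted as deposited, which says nothing about how firm they are. Of the 305, 121 were still counted. Leaving out 1 myoblast-table replicate gave 371 to 380 and 275 to 290. Pseudocounts of 0.1 and 0.5, a limit of 5 TPM and quantile normalization left both counts within 1.5 times. No gene named with a difference of 2 or more changed direction under any alternative that kept it; as deposited, 11 of 111 fell under 2, among them Ly6a at -1.89 and Igfbp4 at -1.35. No paired analysis was possible because the groups compared share fewer than 2 replicate numbers and no test was made.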

Other observations

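Metabolic and stress genes differed by list. Of 20 glycolysis and glucose uptake genes at 10 or more rescaled TPM, 3 were at least 4-fold higher in the myoblast-table controls and 0 in the berry-table control, where 5.38% and 4.25% of all genes were. These were Eno3, the muscle enolase, at 193, 181 and 189 against 17.4, Hk1, a hexokinase, at 36.6, 38.8 and 35.6 against 3.27, and Gpi1, glucose-6-phosphate isomerase, at 126, 162 and 137 against 22.9. Of 21 cholesterol and fatty acid synthesis genes and 76 nuclear oxidative phosphorylation genes, 0 reached that size either way. Of 18 ATF4 and unfolded protein response genes, 1 (5.56%) did, near the 4.25% of all genes that were higher in the berry-table control: Cth, which makes cysteine, was at 1.68, 2.92 and 2.58 against 15.6. Of 13 mitochondrially encoded protein genes, 4 (30.8%) were at least 4-fold higher in the berry-table control and 0 in the others, with a median of -1.04 that was 0.27 in the TPM as deposited. Besides mt-Co2, these were mt-Co1 at 2139, 2084 and 2056 against 9077, mt-Atp6 at 264, 68.2 and 53.2 against 1061, and mt-Co3 at 14.96, 12.8 and 394 against 1258. The last 2 also varied widely within the myoblast table. Among 7 interferon-stimulated genes at 10 or more, 1 (14.3%) was higher in the berry-table control: H2-D1, a class I antigen gene, was at 19.4, 18.1 and 17.6 against 138.

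Lars2, a mitochondrial leucyl-tRNA synthetase gene picked after its values were seen, varied widely within the myoblast table, at 40.7, 3184 and 1576 against 8.71 in the berry-table control. It is among the 63 genes (0.878%) whose 3 replicates span a difference of 2 or more.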
